A study of Rattus norvegicus with 3 samples.

Results

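Calcineurin is the calcium-dependent protein phosphatase of cardiac hypertrophy signalling, and 10 rat genes for its subunits, its regulators, its substrate NFAT and the kinases that counteract it are described here in cultured heart muscle cells. The genes were chosen by name: Ppp3ca, Ppp3cb, Ppp3cc and Ppp3r1 for the subunits, Rcan1 and Rcan2 for the RCAN regulators, Fkbp1a for an FK506-binding protein, Nfatc3 for the transcription factor, and Gsk3b and Dyrk1a for the kinases. Every probe set that the platform annotation gives 1 of these symbols was taken, which made 17 probe sets of the 15923 on the array and 10 genes of 10411. Messenger RNA was measured in ventricular myocytes from newborn rats on 3 Affymetrix arrays, 1 for unstimulated cells, 1 for cells with 20 µM phenylephrine and 1 for cells with 1 µM PAMH, each after 48 h of culture. Phenylephrine is an agonist of α-adrenergic receptors that makes these cells grow, and PAMH is the submitters' name for the other compound, which stands beside keywords for serotonin and pyridine. Their doses were not the same. The labels name no strain and do not say how many hearts or cultures each array stands for. With 1 array per condition there was no replicate, no test and no error for a condition, so the text states how the 3 arrays differed, at a precision set by their small number.

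Calcineurin is a heterodimer of a catalytic subunit, which binds calmodulin, and a regulatory subunit, which binds calcium itself. When cytosolic calcium stays high, it removes phosphates from NFAT proteins, which then enter the nucleus and activate genes together with partners such as GATA4 and MEF2. Gsk3b and Dyrk1a put phosphates back and favour nuclear export of NFAT, RCAN proteins bind calcineurin and restrain it, and FK506-binding proteins inhibit it when loaded with the drug tacrolimus. In heart muscle, active calcineurin is known to be sufficient for hypertrophic growth. Rcan1 is transcribed from alternative first exons, of which an internal one is known as a direct target of NFAT, so its messenger RNA is often used as a readout of calcineurin activity.

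Rcan1 and Fkbp1a were higher on the arrays of both compounds than on the unstimulated array, and the measured subunit, Rcan2, NFAT and kinase genes differed by less than 1.5-fold. Rcan1 was 2.73-fold higher with phenylephrine and 3.47-fold higher with PAMH. Fkbp1a was 1.92-fold and 1.82-fold higher. The brightest probe set of Ppp3r1, for the regulatory subunit, was 1.37-fold lower with phenylephrine and 1.34-fold lower with PAMH, and Nfatc3 was 1.31-fold and 1.22-fold lower.

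The intensities were multiplied by 1 factor per array so that the array medians were equal, and a ratio was taken only where both arrays reached a floor of 76.0, percentile 40 of all scaled values. Of the 17 probe sets, 15 reached the floor on all 3 arrays, and 9 of the 10 genes were measured. A gene with several probe sets is represented by the brightest. Each other probe set of the 10 genes is given beside it, and those of further genes only in part. With phenylephrine 8.90% of 6571 measured genes were higher by 1.5-fold or more and 4.54% lower, against 2 and 0 of the 9 measured genes here. With PAMH the shares of 6549 genes were 9.31% higher and 4.17% lower, against 2 and 0 of 9. On the deposited intensities the split of all genes turned to 5.98% higher and 7.83% lower with phenylephrine and to 5.33% and 7.84% with PAMH, because the median log2 ratio of all genes moved from 0.07 to -0.05 and from 0.10 to -0.05. The median log2 ratio of the 9 genes was 0.17 with phenylephrine and 0.28 with PAMH. Both comparisons use the same unstimulated array. As a technical yardstick, the log2 ratio differed between probe sets of the same gene with an SD of 0.27 for phenylephrine, 0.29 for PAMH and 0.23 for PAMH against phenylephrine, over 864, 867 and 866 genes. This spread holds no variation between cultures.

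**Figure D1:**
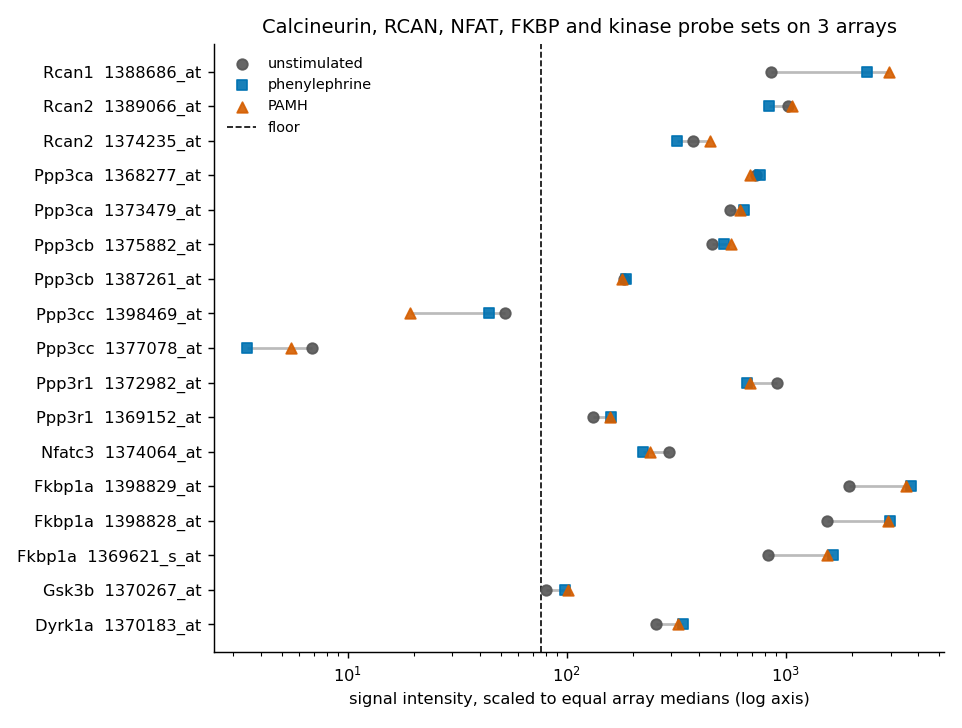
Scaled signal intensity (log axis) of all 17 probe sets, 1 row each, with a circle for the unstimulated array, a square for phenylephrine and a triangle for PAMH; the dashed line is the floor of 76.0. Rcan1 and the 3 Fkbp1a probe sets lie to the right on both treated arrays, and both Ppp3cc probe sets lie left of the floor.

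The cells carried the markers of their label. All 8 cardiomyocyte markers on the array reached the floor on every array, and their summed scaled intensity was 45329 on the unstimulated array, 52420 with phenylephrine and 62857 with PAMH. Of 8 fibroblast markers 7 reached it, with sums of 9379, 7166 and 5540, and all 5 smooth muscle markers did, with sums of 5367, 11715 and 9647. The sums weigh the brightest genes most. With phenylephrine 4 of the 8 cardiomyocyte markers lay above 0 and 4 below in log2 ratio. With PAMH these counts were 6 and 2. The myoglobin gene Mb was 1.59-fold lower with both compounds. All 7 measured fibroblast markers lay below 0 with each compound. Past 1.5-fold lower by the brightest probe set were 1 of them for phenylephrine and 6 for PAMH, against 4.54% and 4.17% of all genes. With PAMH the second probe sets of Col1a1 and Fbn1 had log2 ratios of -0.04 and -0.41, inside 1.5-fold. All 5 smooth muscle markers lay above 0 with phenylephrine, where 57.6% of all genes did, and 4 of them were past 1.5-fold. The other, the smooth muscle myosin gene Myh11, was nearly level at a log2 ratio of 0.02. With PAMH 4 lay above 0, 3 of them past 1.5-fold, and Myh11 was 1.56-fold lower. The 3 endothelial markers on the array (Pecam1, Vwf and Kdr) were below the floor on all arrays and had sums between 75.7 and 121. Of 6 macrophage markers 2 reached the floor on every array, Cd68, Ptprc and Cd14 on none, and the sums ran from 367 to 452. The part of these shifts in the ratios of the calcineurin genes was not tested, and in RNA from whole cultures fewer cells of a type and less RNA per cell cannot be told apart.

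Rcan1 encodes the calcineurin-binding protein whose own transcription responds to NFAT. Its only probe set, 1388686_at, had a scaled intensity of 855 on the unstimulated array, 2339 with phenylephrine and 2965 with PAMH. Both treated arrays lay far above the unstimulated one, and PAMH was the higher. The log2 ratio was 1.45 for phenylephrine, rank 56 from the top of 6571 genes, and 1.79 for PAMH, rank 12 of 6549. Ratios grew with brightness on these arrays: in the brightest of 10 equal classes of genes, where Rcan1 lies, the median log2 ratio was 0.24 with phenylephrine and 0.31 with PAMH, and 16.8% and 20.4% of genes were at least 1.5-fold higher. Across 9 other processing settings the Rcan1 ratio stayed between 1.23 and 1.45 for phenylephrine and between 1.51 and 1.79 for PAMH. The settings that changed only the floor can drop a ratio but not alter it, here and for the other genes. Averaging over its only probe set could not alter the Rcan1 ratio either.

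The start of Rcan1 in the RefSeq promoter table (GRCr8) lies 69829 bases inside the gene, measured from its outermost annotated start, so this is an internal start. The annotation does not say which Rcan1 transcripts the probe set reports. This window is shown because Rcan1 is the gene furthest from its unstimulated level, beside the window of Fkbp1a, the other gene past 1.5-fold. Each runs from 250 bases before to 50 bases after the start, 5′ to 3′ on the gene's strand, and capitals mark the NFAT core letters GGAAA or their reverse complement TTTCC. The Rcan1 window is chr11:45118187-45118486 on the minus strand, and the Fkbp1a window is chr3:160500498-160500797 on the plus strand.
Rcan1: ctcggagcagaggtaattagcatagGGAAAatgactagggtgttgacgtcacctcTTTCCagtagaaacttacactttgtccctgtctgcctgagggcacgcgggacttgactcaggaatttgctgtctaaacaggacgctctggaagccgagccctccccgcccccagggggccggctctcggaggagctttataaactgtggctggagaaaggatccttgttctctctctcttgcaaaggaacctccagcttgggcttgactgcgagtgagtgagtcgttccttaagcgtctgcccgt
Fkbp1a: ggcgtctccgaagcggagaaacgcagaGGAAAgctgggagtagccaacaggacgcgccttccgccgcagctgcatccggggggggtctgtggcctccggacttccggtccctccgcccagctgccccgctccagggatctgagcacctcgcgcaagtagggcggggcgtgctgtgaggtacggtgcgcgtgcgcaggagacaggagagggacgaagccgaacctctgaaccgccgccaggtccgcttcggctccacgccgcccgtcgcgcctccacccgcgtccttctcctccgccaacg

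The letters GGAAA occurred 2 times in the Rcan1 window, beginning 225 and 195 bases before the start, and 1 time in the Fkbp1a window, 223 bases before it. On either strand they occur at least 1 time in 62.7% of the 33469 promoter windows of this length and at least 2 times in 28.5%, so a match is common. The Rcan1 copy furthest from the start reads GGAAAAT, a longer form that contains the core and is found in 5.54% of windows. Between the cores of Rcan1 lies TGACGTCA, the cyclic AMP response element, 207 bases before the start and present in 1.83% of windows. The AP-1 letters TGANTCA, where N is any base, begin 142 bases before the start and are in 7.33% of windows. A TATA box, TATAAA, begins 58 bases before the start, overlaps its own reverse match at 60, and is in 14.2% of windows. None of these 4 other motifs is in the Fkbp1a window, which is 70.3% G or C against 54.7% for Rcan1. The table holds windows for 7 of the 10 genes. Of the others matched, Ppp3cb and Ppp3r1 have the core 1 time, Gsk3b 3 times, and Rcan2 and Ppp3ca not at all. The longer form is also in the Gsk3b window, 2 times, and 0.22% of windows hold it at least 2 times. Gsk3b was below 1.5-fold with both compounds. These matches describe letters and not bound sites.

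Rcan2, the paralog of Rcan1, did not go with it. Its brighter probe set, 1389066_at, had a scaled intensity of 1019 on the unstimulated array, 834 with phenylephrine and 1059 with PAMH. Phenylephrine was the low array and the other arrays lay close together. The second probe set, 1374235_at, had 377, 318 and 451, with phenylephrine again lowest and PAMH highest. The log2 ratios for phenylephrine were -0.29 and -0.25, close to the yardstick of 0.27. For PAMH they were 0.06 and 0.26, and the first changed sign under 4 of 9 settings, so it has no settled direction. Between the compounds, Rcan2 was higher with PAMH by log2 ratios of 0.34 and 0.50, against a yardstick of 0.23, and below 1.5-fold by both.

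Fkbp1a encodes the FK506-binding protein that also sits on ryanodine receptors and on type I receptors of the TGF-β family. Its brightest probe set, 1398829_at, had a scaled intensity of 1943 on the unstimulated array, 3727 with phenylephrine and 3531 with PAMH. The second, 1398828_at, which the annotation ties to the same sequence record, had 1541, 2978 and 2928. The third, 1369621_s_at, had 825, 1641 and 1536, and its suffix marks probes that may match more than 1 transcript. The unstimulated array was the lowest by each of the 3 probe sets, and the treated arrays lay close together. The log2 ratios were 0.94, 0.95 and 0.99 for phenylephrine and 0.86, 0.93 and 0.90 for PAMH, so the probe sets differed by less than the yardstick. Fkbp1a ranked 204 of 6571 and 213 of 6549 genes from the top. It lies in the same brightest class as Rcan1, where the median log2 ratio was 0.24 and 0.31. In that class 16.8% and 20.4% of genes were at least 1.5-fold higher. After quantile normalization and after cyclic loess the PAMH ratio of the brightest probe set was 0.53 and 0.52, below 1.5-fold, whereas the second (0.61 and 0.61) and the third (0.66 and 0.65) stayed past it. The ratio of the brightest for phenylephrine stayed between 0.68 and 0.96 under the 9 settings run.

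**Figure D2:**
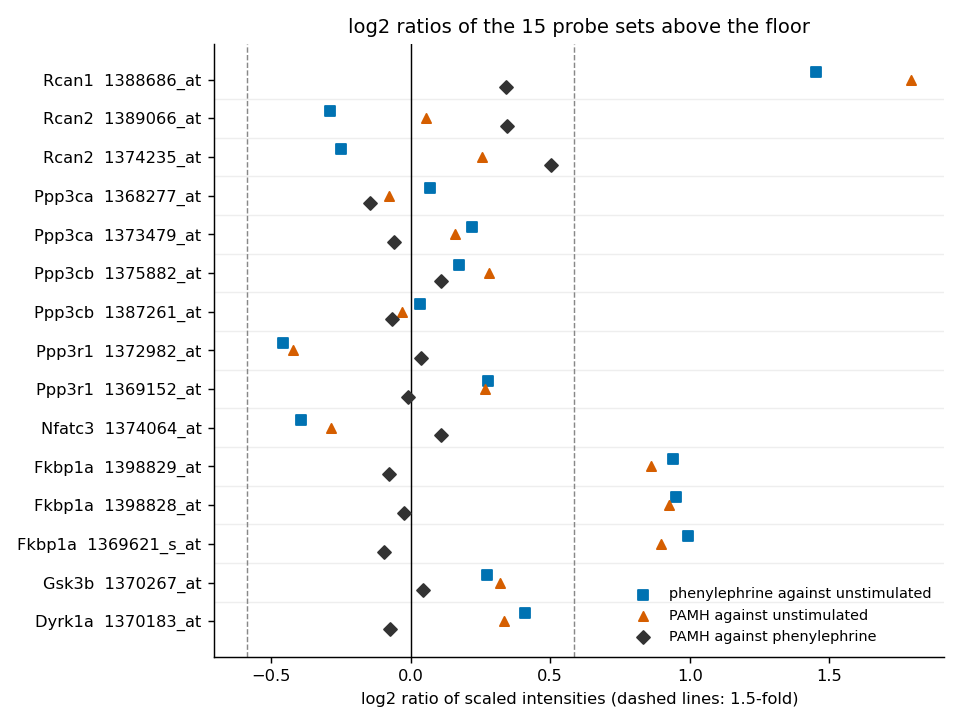
Log2 ratio (horizontal axis) of the 15 probe sets at or above the floor, with a square for phenylephrine against unstimulated, a triangle for PAMH against unstimulated and a diamond for PAMH against phenylephrine; dashed lines mark 1.5-fold. Rcan1 and the 3 Fkbp1a probe sets lie past the line against unstimulated, the 2 Ppp3r1 probe sets lie on opposite sides of 0, and no diamond is past a line.

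The catalytic subunit genes differed little between arrays. Ppp3ca, for the α catalytic subunit, had scaled intensities of 726, 761 and 688 by 1368277_at and of 553, 644 and 617 by 1373479_at on the unstimulated, phenylephrine and PAMH arrays. The first was highest with phenylephrine and lowest with PAMH, and the second was lowest without stimulus, but the first changed sign under 3 of 9 settings for phenylephrine and 1 of 9 for PAMH, so its order is not settled. Its log2 ratios ran from -0.08 to 0.22 over both probe sets and both compounds. Ppp3cb, for the β catalytic subunit that is needed for the hypertrophic response in mouse heart, had 460, 518 and 559 by 1375882_at and 182, 187 and 178 by 1387261_at. The first probe set was higher on both treated arrays and the second was nearly level. Its log2 ratios ran from -0.03 to 0.28, within 1 SD of the yardstick. Ppp3cc, for the γ catalytic subunit best known from testis, was below the floor on all arrays by both probe sets, with intensities between 3.48 and 52.2, and values below the floor have no order.

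Ppp3r1 encodes the regulatory subunit, calcineurin B. Its brighter probe set, 1372982_at, had a scaled intensity of 914 on the unstimulated array, 665 with phenylephrine and 683 with PAMH. Both treated arrays were lower and lay close together. By this probe set Ppp3r1 lies in class 9 of 10 by brightness, where the median log2 ratio was 0.15 and 0.19. Its own log2 ratios of -0.46 and -0.42 ranked 528 of 6571 and 545 of 6549 from the bottom. The dimmer probe set, 1369152_at, went the other way, with 131, 159 and 158 and log2 ratios of 0.28 and 0.27. The mean of both gave -0.09 and -0.08, so the direction of Ppp3r1 rests on the brighter probe set. By that probe set the gene was past 1.5-fold lower with both compounds after quantile normalization (-0.62 and -0.60) and after cyclic loess (-0.60 and -0.60), and with phenylephrine alone on the deposited intensities (-0.59).

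Nfatc3, the NFAT gene of the 10, was measured by 1 probe set, 1374064_at, with a scaled intensity of 292 on the unstimulated array, 222 with phenylephrine and 240 with PAMH. The unstimulated array was the highest. The log2 ratios were -0.39 and -0.28, rank 694 and 951 from the bottom, and they were below 0 under each of 9 settings (down to -0.52 and -0.44). Of these settings, those that changed only the floor or averaged its 1 probe set could not alter the ratios. Neither ratio passed 1.5-fold under any setting.

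Both chosen kinase genes lay above their unstimulated level by less than 1.5-fold. Dyrk1a, which primes NFAT for further phosphorylation, had a scaled intensity of 254 on the unstimulated array, 338 with phenylephrine and 321 with PAMH, with log2 ratios of 0.41 and 0.33. Gsk3b, which follows it on the same substrate, had 80.6, 97.5 and 101, with log2 ratios of 0.28 and 0.32, against yardsticks of 0.27 and 0.29. The unstimulated array was the lowest for both genes. All ratios of this pair against the unstimulated array were above 0 and below 1.5-fold under each setting run, and Gsk3b lay near the floor on every array.

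**Figure D3:**
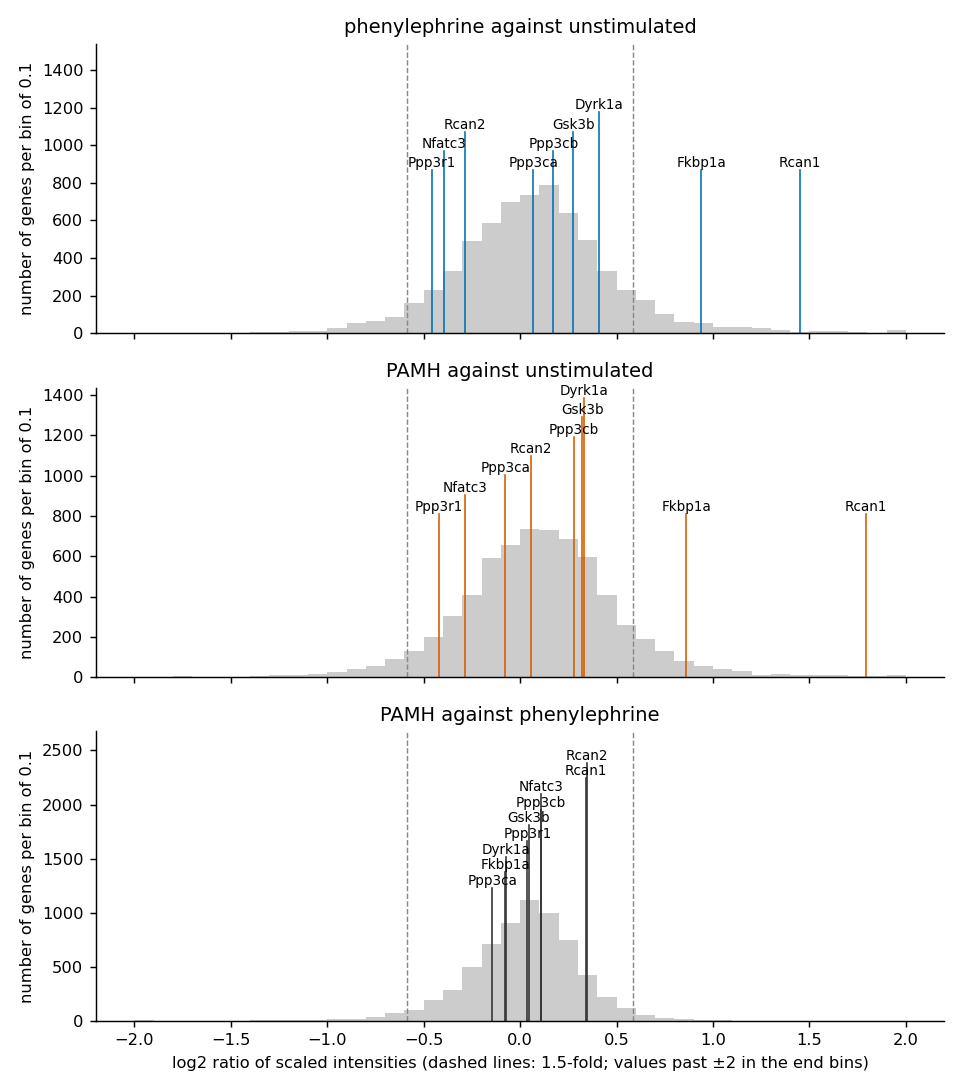
Number of genes per bin of 0.1 in log2 ratio (grey bars) for each comparison, with a vertical line at each of the 9 measured genes; line heights only separate the names, dashed lines mark 1.5-fold, and values past ±2 are in the end bins. Rcan1 and Fkbp1a stand in the right tail against the unstimulated array, and in PAMH against phenylephrine all 9 genes lie inside 1.5-fold.

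The treated arrays were also set against each other. None of the 9 measured genes was past 1.5-fold. Over all 6593 genes 1.93% were higher and 2.67% lower with PAMH than with phenylephrine, so none of 9 is close to the background. Rcan1 was 1.27-fold higher with PAMH (log2 ratio 0.34, rank 686 from the top) and Rcan2 was also 1.27-fold higher by its brighter probe set. The other 7 lay between -0.15 and 0.11. The doses of the compounds were not matched, and with 1 array each there is no interval for these differences.

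Where a gene had several measured probe sets, these did not always lie on the same side of 0. They did for 4 of 5 genes with phenylephrine, for 2 of 5 with PAMH and for 3 of 5 between the compounds. Fkbp1a was on 1 side in all 3 comparisons, whereas Ppp3r1 was split in each. Between the compounds the Ppp3r1 ratios were only 0.04 and -0.01, against a yardstick of 0.23, and Ppp3cb with PAMH had 0.28 and -0.03. The share over all genes with several probe sets is not given here, so these counts have no background.

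The wider pathway was described by 7 further lists with 83 genes, of which 68 were on the array. With phenylephrine 5 of 51 measured genes were at least 1.5-fold higher and 2 lower (9.80% and 3.92%), and with PAMH 7 of 53 were higher and none lower (13.2%). The median log2 ratio was 0.10 with phenylephrine and 0.04 with PAMH, against 0.07 and 0.10 for all genes. For PAMH against phenylephrine 4 of 50 were higher and 2 lower (8% and 4%), against 1.93% and 2.67% of all genes. No share was tested. Of 5 measured genes for calcineurin anchors and binding proteins, 2 were higher with phenylephrine and 3 with PAMH, where 8.90% and 9.31% of all genes were. Myoz2, which encodes calsarcin, a Z-disc protein that binds calcineurin, had a scaled intensity of 3920 on the unstimulated array, 7394 with phenylephrine and 8274 with PAMH. Its log2 ratios were 0.92 and 1.08, the first falling to 0.58, just below 1.5-fold, after cyclic loess. Lmcd1, a LIM-domain protein gene linked to calcineurin in heart, had 195, 507 and 453, with log2 ratios of 1.38 and 1.22. Both treated arrays were above the unstimulated one for both genes. Akap6, the anchoring protein of the nuclear envelope that holds calcineurin, had 143, 154 and 235, so only the PAMH array was high (log2 ratio 0.72, and 0.61 against phenylephrine). On the deposited intensities and with an offset of 50 both ratios were below 1.5-fold, as was the second after cyclic loess, the lowest being 0.57 and 0.48. Cabin1, a calcineurin inhibitor, had log2 ratios of -0.16 and -0.11. Ppp3r2 and Akap5 were below the floor on all arrays.

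**Figure D4:**
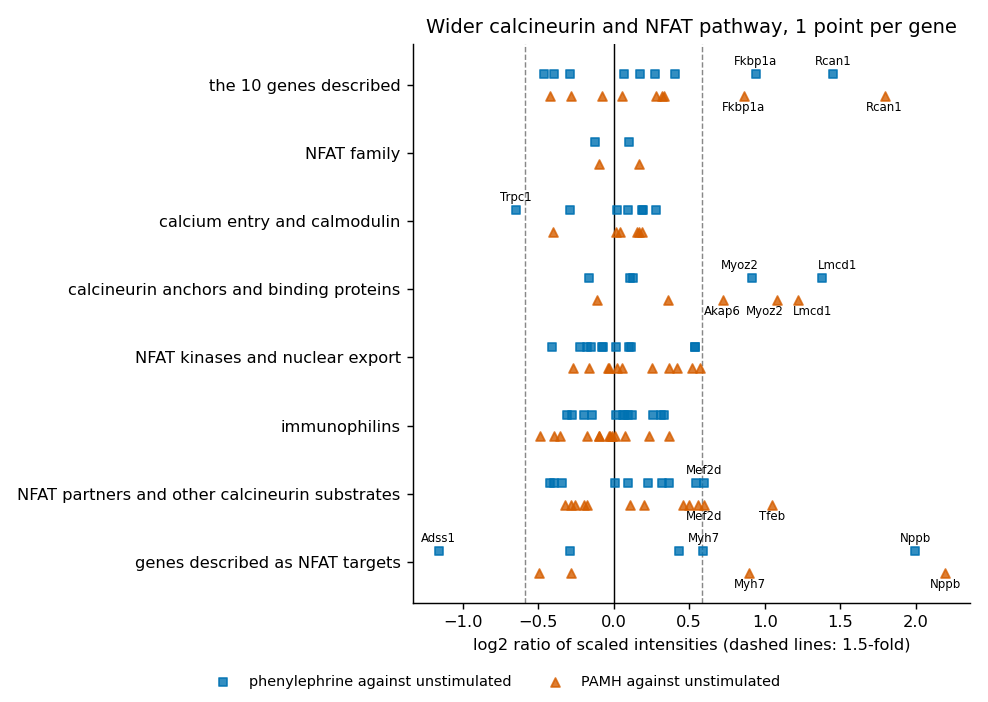
Log2 ratio (horizontal axis) against the unstimulated array, 1 point per measured gene and compound, by gene list, with squares for phenylephrine and triangles for PAMH; names mark genes past the dashed lines at 1.5-fold. Most points lie inside the lines, and Rcan1, Fkbp1a, Myoz2, Lmcd1, Mef2d, Myh7 and Nppb lie to the right of them for both compounds. Mef2d is only just past the line with both compounds, and Myh7 only just with phenylephrine.

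Other NFAT genes were Nfatc4, with log2 ratios of 0.10 and -0.10, and Nfat5, which responds to osmotic stress and not to calcineurin, with -0.13 and 0.17. Both were within 1 SD of the yardstick by the brightest probe set, and the second of Nfat5 had 0.28 and 0.01. Among calcium entry and calmodulin genes, Trpc1, a cation channel subunit gene, was lower with phenylephrine (235 to 150, log2 ratio -0.65, and -0.51 with an offset of 50), and had -0.40 with PAMH. None of the other measured genes of this list passed 1.5-fold with either compound, where 8.90% and 9.31% of all genes were higher and 4.54% and 4.17% lower. For so few genes this is close to the background. Calm2 had 0.20 and 0.17. Of 11 further measured genes for NFAT kinases and nuclear export, none was past 1.5-fold with either compound by the brightest probe set. Against 8.90% and 9.31% of all genes higher and 4.54% and 4.17% lower, none of 11 is close to the background. With phenylephrine 5 lay above and 6 below 0 (median log2 ratio -0.07), among the latter Gsk3a at -0.18. The brightest probe set of Csnk1d had a log2 ratio of 0.54 with phenylephrine, but another had -0.77, past 1.5-fold. The phenylephrine signal of that other probe set, 76.8, lay near the floor. For PAMH against phenylephrine the same probe sets had -0.17 and 0.71. Mapk9, a stress-activated kinase gene, had 193, 146 and 276 on the unstimulated, phenylephrine and PAMH arrays and was thereby higher with PAMH than with phenylephrine by a log2 ratio of 0.92. Of the other immunophilins, none of 12 measured with phenylephrine and none of 13 with PAMH was past 1.5-fold, which at 8.90% and 9.31% of all genes higher is close to the background, and their median log2 ratios were 0.07 and -0.03. Fkbp1b, the closest relative of Fkbp1a on ryanodine receptors, was below the floor on all arrays. Fkbp10, of the endoplasmic reticulum, was lower with PAMH than with phenylephrine (121 against 201, log2 ratio -0.73). With an offset of 50 this was -0.55, below 1.5-fold.

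Among NFAT partners and further calcineurin substrates, 1 of 10 measured genes was higher with phenylephrine and 2 of 12 with PAMH by the brightest probe set, near the 8.90% and 9.31% of all genes. Tfeb, a regulator of lysosome genes that calcineurin dephosphorylates, had a scaled intensity of 121 on the unstimulated array, 151 with phenylephrine and 251 with PAMH. Only the PAMH array stood far above, at a log2 ratio of 1.05 against unstimulated and 0.73 against phenylephrine, the latter falling to 0.58, below 1.5-fold, with an offset of 50. Mef2d had 0.60 with both compounds, but its second probe set had 0.67 and -0.13 and the call was lost under 3 settings for phenylephrine and 4 for PAMH. Gata4, the cardiac partner of NFAT, had 0.37 and 0.50, and its second probe set had 0.86 and 0.87, past 1.5-fold. Jun had 0.54 and 0.46 by its brightest probe set and 0.55 and 0.44 by another, below 1.5-fold. Its remaining probe set had 0.91, past 1.5-fold, and 0.11, and -0.81 for PAMH against phenylephrine.

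Of 12 genes described as NFAT targets, 5 were measured with phenylephrine and 4 with PAMH. Nppb, the B-type natriuretic peptide gene, was higher with both, with a scaled intensity of 3227 on the unstimulated array, 12872 with phenylephrine and 14755 with PAMH. Myh7, the β myosin heavy chain gene, had log2 ratios of 0.59 and 0.90, and was below 1.5-fold with both compounds after quantile and after cyclic loess normalization, the lowest values being 0.20 and 0.31. With phenylephrine it was also below 1.5-fold on the deposited intensities and with scaling on percentile 75, while its second probe set had 1.13 and 1.52. Adss1, the muscle adenylosuccinate synthase gene, went the other way, with 445, 199 and 315 and log2 ratios of -1.16 and -0.50. The immune cell targets Il2, Il4, Ifng, Cd40lg and Tnf were below the floor on all arrays. Adss1 and Faslg, which encodes the death ligand of immune cells, also differed between the compounds, the first higher with PAMH (log2 ratio 0.66) and the second lower (-0.72). With an offset of 50 both were below 1.5-fold, and the Faslg signals of 78.3 to 129 lay near the floor. The measured targets thus lay on both sides of 0.

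The 5 genes nearest to Rcan1 in their pair of log2 ratios against the unstimulated array, among 4824 bright genes measured on all 3 arrays, were Mxra7, Hspb3, Csrp3, Tgm2 and Fhl1. The Euclidean distance, over 2 ratios from 3 arrays, was 0.10 for Mxra7 and 0.23 for Fhl1. Hspb3, a small heat shock protein gene, was 2.89-fold higher with phenylephrine and 3.27-fold higher with PAMH, and Csrp3, the muscle LIM protein gene, 3.04-fold and 3.29-fold. None of the 5 belonged to the calcineurin lists. Beside the 10 genes, these lists hold 68 of the 10411 genes on the array, so none of 5 is close to the background. With 3 arrays such nearness is a description of these values alone.

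**Figure D5:**
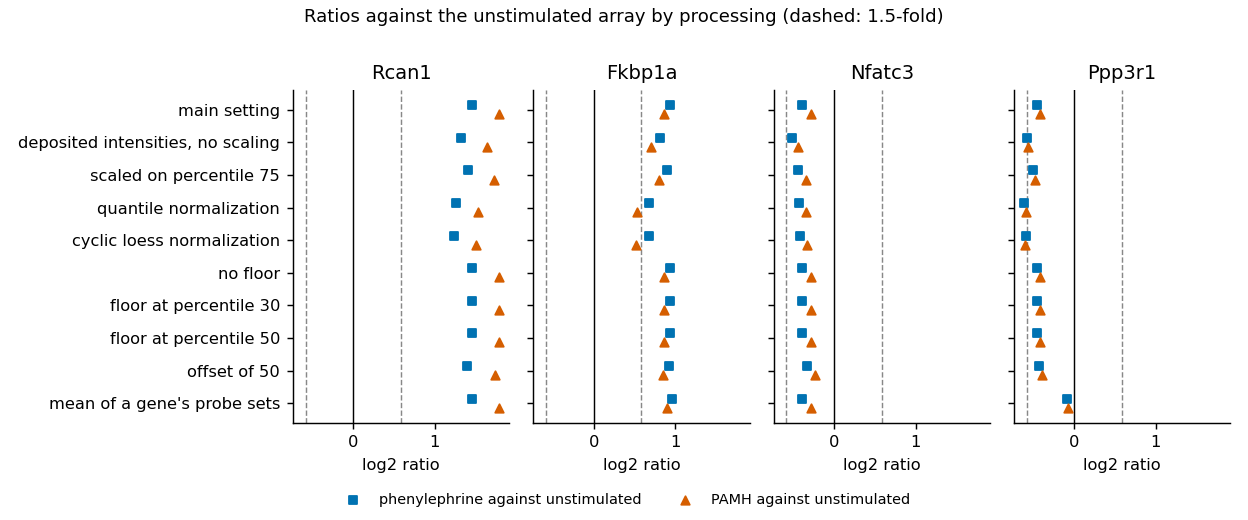
Log2 ratio (horizontal axis) against the unstimulated array for Rcan1, Fkbp1a, Nfatc3 and Ppp3r1 in the main setting and under 9 processing alternatives, with squares for phenylephrine and triangles for PAMH; dashed lines mark 1.5-fold. Rcan1 stays past the line in each row, Fkbp1a with PAMH drops inside it after quantile and cyclic loess normalization, and Ppp3r1 moves next to 0 when its probe sets are averaged.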

How the data were processed

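The authors deposited linear signal intensities, with a value for every probe set on each array. The software behind them, and any genome build, is not given in the sources used here. Their mean, leaving out the top and bottom 2%, was 250.1 on each array. Gene identifiers were looked up in a RefSeq gene table for current symbols. The 57 control probe sets, and those without exactly 1 symbol, were not used. Each array was multiplied by a factor (0.937 for unstimulated, 1.02 for phenylephrine, 1.04 for PAMH) that made the medians equal, and log2 ratios were taken where both arrays reached the floor. Values under 1 were set to 1 before the log2. Alternatives were other scalings, floors at percentile 30 and 50 or none, an offset of 50, and the mean of a gene's probe sets. The ratio step was tested on simulated arrays with even noise, 1 factor per array and as many raised as lowered probe sets. These had no trend of ratios with brightness, so the test cannot show that the scaling suits the real arrays. The rule for naming genes was to give every chosen gene, the genes of the wider lists past 1.5-fold or acting directly on a chosen gene, and the 5 nearest to Rcan1 among genes above percentile 60 in mean signal. The genes and lists were chosen with earlier results of these data known. Tools were Python 3.11.15, numpy 2.4.6, pandas 2.3.3, R 4.3.3 and limma 3.58.1 (quantile and cyclic loess only).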

Additional observations from a re-analysis of the deposited data

How the results depend on the processing

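Of the 10 genes, Rcan1 and Fkbp1a were past 1.5-fold with phenylephrine under all 9 alternatives. With PAMH this count of higher genes was 1 (Rcan1 alone) after quantile normalization and after cyclic loess, in place of 2, although the other 2 probe sets of Fkbp1a stayed past 1.5-fold. The count of lower genes, 0 in the main setting, was 1 with phenylephrine on the deposited intensities, after quantile normalization and after cyclic loess, and 1 with PAMH after quantile normalization and after cyclic loess, each time Ppp3r1 by its brighter probe set. Without a floor it was 1 with PAMH and 1 for PAMH against phenylephrine, each time Ppp3cc, whose signal is below the floor. Of 384 alternative values for 45 log2 ratios, 378 moved by less than the yardstick SD, 11 changed sign and 7 crossed 1.5-fold. None of the ratios past 1.5-fold changed sign. The settings that changed only the floor decide whether a ratio is kept and cannot alter it. Averaging cannot alter a gene with 1 probe set either, so part of the 378 was fixed in advance. No paired analysis was possible because each group has 1 array. Leaving out a replicate could not be done for the same reason. Signal over background limits Gsk3b, near the floor, and Ppp3cc, below it.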
